A study of Homo sapiens with 9 samples.

Results

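The genes described here encode enzymes and carriers that detoxify reactive oxygen species, and they were taken by symbol as GPX1, GPX3, GPX4, GPX8, SOD1, SOD2, SOD3, CAT, TXN and TXNRD1. Of these 10 genes, 7 had a row among the 6499 genes of the deposited table, and GPX8, SOD1 and CAT had none and were not analysed here. The cells were WI-38, an established human fibroblast line from fetal lung that stops dividing after a finite number of passages, at population doubling 30. Control cells received the DMSO carrier and then DMSO medium. Model cells received 1 μM doxorubicin, an anthracycline that traps topoisomerase II on DNA and breaks it, for 12 h and were moved to medium with DMSO for 48 h, so that both groups carried DMSO. Each group had 3 bulk RNA-seq libraries, named control 1 to 3 and doxorubicin 1 to 3 below. A group that was given oridonin after doxorubicin was not analysed here.

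Superoxide dismutases convert superoxide to hydrogen peroxide, and each works in its own place: SOD2 with manganese in the mitochondrial matrix, SOD3 with copper and zinc outside the cell. Glutathione peroxidases then reduce peroxides at the expense of glutathione: GPX1 acts mainly on hydrogen peroxide in the cytosol and mitochondria, GPX3 is secreted, and GPX4 reduces lipid hydroperoxides in membranes and thereby protects against ferroptosis. Thioredoxin, encoded by TXN, reduces protein disulfides and feeds electrons to the peroxiredoxins, and thioredoxin reductase 1, encoded by TXNRD1, returns it to the reduced form with NADPH.

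GPX1, GPX3, GPX4 and TXNRD1 are selenoproteins, whose active sites hold a selenocysteine that is read from a TGA codon, elsewhere a stop signal. The coding sequence around that codon is shown for these genes because it is the feature that separates them from SOD2, SOD3 and TXN, whose GENCODE release 29 transcripts carry no selenocysteine. Capitals mark the TGA codon in the sense strand, 5′ to 3′, with 7 codons before it and up to 7 after it.
GPX1: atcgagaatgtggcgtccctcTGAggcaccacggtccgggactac
GPX3: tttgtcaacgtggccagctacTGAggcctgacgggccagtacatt
GPX4: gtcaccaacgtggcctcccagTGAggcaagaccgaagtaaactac
TXNRD1: agcatcctccaggctggctgcTGAggt

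On GRCh38 the TGA of GPX1 lies at chr3:49358132-49358134 on the minus strand and is codon 49 of 203. That of GPX3 lies at chr5:151025469-151025471 on the plus strand and is codon 73 of 226. In GPX4 it lies at chr19:1105403-1105405 on the plus strand and is codon 73 of 197. It thus lies well inside the coding sequence in all 3 peroxidase genes. In TXNRD1 it lies at chr12:104348413-104348415 on the plus strand and is codon 648 of 649, the last but 1, so that the window ends with the coding sequence. Over the 45 bases shown, GPX1 and GPX4 were identical at 28, GPX1 and GPX3 at 26, and GPX3 and GPX4 at 25.

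The 7 genes lie on 7 different chromosomes. GPX1 (ENSG00000233276, chr3:49357171-49358600, minus strand) has the shortest span, 1430 bases, and this annotation release types it as a polymorphic pseudogene and names 2 pseudogenes after it. The spans of GPX4 (ENSG00000167468, chr19:1103926-1106791, plus strand), GPX3 (ENSG00000211445, chr5:151020438-151028993, plus strand) and SOD3 (ENSG00000109610, chr4:24789912-24800842, plus strand) are 2866, 8556 and 10931 bases. TXN (ENSG00000136810, chr9:110243811-110256640, minus strand) spans 12830 bases and has 7 pseudogenes of its name. SOD2 (ENSG00000112096, chr6:159669057-159745186, minus strand) spans 76130 bases, and TXNRD1 (ENSG00000198431, chr12:104215779-104350305, plus strand) spans 134527. Another protein-coding record with the symbol SOD2 overlaps SOD2 on the same strand and has no row in the table. The pseudogene HNRNPH1P1 and the small RNA gene RNU4ATAC18P also overlap SOD2 on the same strand, and the protein-coding WTAP on the opposite strand. TXNRD1 is overlapped by an antisense gene and, on its own strand, by the protein-coding EID3 and the pseudogene RPL18AP3. How the authors' counting divided reads between such records, or between genes and their pseudogenes, is not given in the sources used here, so the levels of GPX1, SOD2, TXN and TXNRD1 are uncertain to that extent.

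The deposited values are given per gene and library, and were read as TPM (a transcript level corrected for length and scaled to the same total in every library). Sequencing depth cannot be recovered from TPM and is unknown. All 6499 listed genes had passed the authors' own thresholds (more than 1.2-fold different, p below 0.05) on these same 6 libraries. The 7 genes are therefore listed because they differed there, and no test below is independent of that choice. The mean TPM of GPX4 and of TXN differed between the groups by ratios of 1.11 and 1.09, below 1.2, so the authors' fold was not the ratio of mean TPM, and how it was scaled is not given in the sources used here. As a description, libraries were correlated on log2(TPM + 1) over the 5721 listed genes that averaged 1 TPM or more. Within a group the Pearson r was 0.992 to 0.995, against 0.935 to 0.958 between groups. Nothing in the labels says that the 3 libraries of a group came from separate cultures, so p-values measure only the spread between these libraries, which may be technical.

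The fibroblast label was compared with marker genes. Of 12 fibroblast markers 6 had a row, with summed levels of 10315 to 10640.2 TPM in control and 9424 to 11501 TPM in doxorubicin libraries, which overlapped. By the limma test described below, 5 of the 6 were called lower and 1 higher, beside 48.7% and 28.2% of all genes tested. Those called lower were COL1A1 (-0.55 on the log2 scale), COL1A2 (-0.38), COL3A1 (-1.48), PDGFRA (-0.91) and PDGFRB (-0.58), COL1A2 not with median-of-ratios scaling. FN1, fibronectin, was called higher (0.45) and went from 4524 to 6220.0 TPM on average. No endothelial marker of 4 had a row. Because only changed genes are listed, a marker without a row may still be expressed, and its absence does not bear on the cell type. Of 6 epithelial markers 3 had a row (KRT8, KRT18 and KRT19), with summed levels of 135 to 150.5 TPM in control and 283 to 307 TPM in doxorubicin libraries, while EPCAM and CDH1 had none. Of 5 leukocyte markers 2 had a row, with sums of 45.0 to 49.0 and 87.4 to 93.7 TPM, nearly all of it from the lysosomal gene CD68, and the defining marker PTPRC was at 0.62 TPM or less in every library. The epithelial and leukocyte sums were higher in every doxorubicin than in every control library, the collagen and PDGF receptor genes were lower, and the part of these markers in the values below was not tested.

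GPX1, the main cytosolic glutathione peroxidase, rose to 3.22 times its control level after doxorubicin, and TXNRD1 fell to 0.465 of it. GPX3 rose from a low level and SOD2 fell modestly. GPX4 and TXN, both at high levels, had small differences on TPM and with quantile normalization and larger ones with median-of-ratios scaling, with a direction that depended on the scaling, and the groups of SOD3 overlapped. Changes were tested with limma on log2(TPM + 1) over the 5721 genes that averaged 1 TPM or more, and a gene was called at a Benjamini-Hochberg adjusted p under 0.05. Of the 7 genes, 3 were called higher (GPX1, GPX3 and GPX4) and 2 lower (SOD2 and TXNRD1). Over all genes tested, 76.9% were called, 28.2% higher and 48.7% lower, so that a call in itself sets none of the 7 apart from the rest of a table made of changed genes. Groups did not overlap for the same 5 genes, 3 higher and 2 lower, against 80.7% of all genes tested, 32.3% higher and 48.4% lower. With quantile normalization 3 of the 7 were called higher and 2 lower, beside 37.8% and 30.4% of all genes. With median-of-ratios scaling, in which each library is divided by the median of its genes' ratios to their geometric means, 5 were called higher and 1 lower, beside 44.7% and 39.6%. Over the genes tested the middle log2 fold change was -0.28 on TPM, -0.01 with quantile normalization and -0.08 with median-of-ratios scaling. Both scalings were computed on the listed genes alone, which had been chosen as changed, so this middle is not that of all expressed genes. A fold change on the log2(TPM + 1) scale understates the change of a low gene, and in bulk RNA fewer cells of a type and less RNA per cell cannot be told apart.

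**Figure D1:**
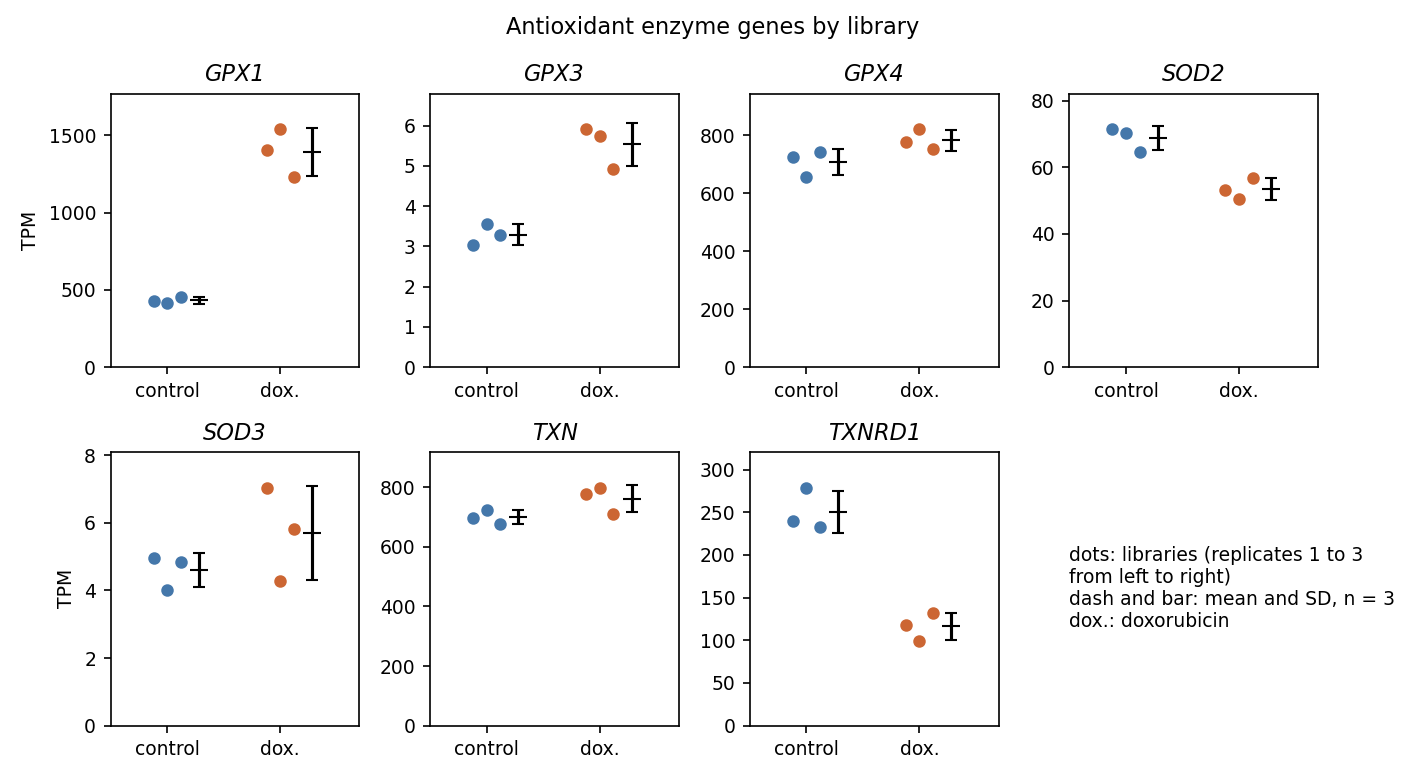
Level in TPM (vertical axis, starting at 0, with its own range in each panel) of the 7 antioxidant enzyme genes in each library, for 3 control and 3 doxorubicin libraries, with dots for libraries and dash and bar for mean and SD. GPX1 went from 433 to 1392 TPM on average and TXNRD1 from 250.3 to 116 TPM, with a wide gap between the groups in both, while the groups of SOD3 and of TXN overlapped.

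Among the superoxide dismutases, SOD2 was the abundant one with a row. The mitochondrial SOD2 was at 71.4, 70.3 and 64.6 TPM in control 1 to 3 and at 53.2, 50.5 and 56.8 TPM in doxorubicin 1 to 3. All 3 doxorubicin libraries lay below all 3 control libraries. Its mean went from 68.8 ± 3.70 to 53.5 ± 3.20 TPM (SD, n = 3), a ratio of 0.778, and it fell by 0.36 on the log2 scale (SE 0.07, 95% interval -0.52 to -0.19, adjusted p = 0.00187 by limma). The change was also set against the median of the genes tested, all of them listed as changed. On the log2 scale it was then -0.08 on TPM, -0.33 with quantile normalization and -0.04 with median-of-ratios scaling. Under median-of-ratios scaling the change was -0.12 with an adjusted p of 0.110 by limma, and the call was lost. Under quantile normalization it was -0.34 (adjusted p = 0.00208 by limma).

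The secreted SOD3 was low, at 4.96, 4.02 and 4.83 TPM in control 1 to 3 and at 7.04, 4.27 and 5.82 TPM in doxorubicin 1 to 3. Doxorubicin 2 lay among the control libraries, and the other doxorubicin libraries lay above them. The mean was 4.60 ± 0.509 TPM in control and 5.71 ± 1.39 TPM in doxorubicin libraries (SD, n = 3), with a log2 fold change of 0.24 (SE 0.16, 95% interval -0.12 to 0.60, adjusted p = 0.185 by limma). The difference was within the spread of the doxorubicin libraries, and the interval still allows a rise of 0.60. The call turned on 1 library and on the scaling: without doxorubicin 2 the change was 0.41 (adjusted p = 0.0283 by limma), with quantile normalization 0.61 (0.00646) and with median-of-ratios scaling 0.44 (0.0236).

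Among the glutathione peroxidases, GPX1 changed most. GPX1 was at 428, 414 and 456 TPM in control 1 to 3 and at 1407, 1539.9 and 1230.3 TPM in doxorubicin 1 to 3. The lowest doxorubicin library lay far above the highest control library. The mean went from 433 ± 21.6 to 1392 ± 155 TPM (SD, n = 3), 3.22 times the control level, and the log2 fold change was 1.68 (SE 0.08, 95% interval 1.50 to 1.85, adjusted p = 1.01e-07 by limma). This was the 28th largest rise of the 5721 genes tested, and by mean TPM GPX1 went from the 168th to the 67th place among the 6499 listed genes. The change was 1.55 with quantile normalization and 1.92 with median-of-ratios scaling, and 1.60 to 1.76 when each library was left out in turn.

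GPX3, the secreted plasma enzyme, was the lowest of the 7 genes in control libraries, at 3.04, 3.56 and 3.27 TPM, and was at 5.91, 5.75 and 4.93 TPM in doxorubicin 1 to 3. The groups did not overlap. The mean went from 3.29 ± 0.261 to 5.53 ± 0.526 TPM (SD, n = 3), a ratio of 1.68, and the log2 fold change was 0.60 (SE 0.12, 95% interval 0.33 to 0.88, adjusted p = 0.00155 by limma). It was 0.95 with quantile normalization and 0.80 with median-of-ratios scaling.

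GPX4, the lipid hydroperoxidase, was at 723, 656 and 743 TPM in control 1 to 3 and at 776, 821 and 751 TPM in doxorubicin 1 to 3. The groups were apart by a narrow margin, between control 3 and doxorubicin 3. The mean went from 707 ± 45.7 to 782 ± 35.4 TPM (SD, n = 3), a ratio of 1.11, with a log2 fold change of 0.15 (SE 0.06, 95% interval 0.01 to 0.28, adjusted p = 0.0474 by limma). The call was lost without control 1, control 2, doxorubicin 1 or doxorubicin 2 (adjusted p from 0.0742 to 0.193 by limma). The direction was reversed by quantile normalization, to -0.044 (adjusted p = 0.490), and with median-of-ratios scaling the change was 0.39 (adjusted p = 0.00846).

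In the thioredoxin system the carrier and its reductase moved differently. TXN was at 696, 725 and 677 TPM in control 1 to 3 and at 776, 798 and 709.8 TPM in doxorubicin 1 to 3. Doxorubicin 3 lay within the range of the control libraries. The mean was 699 ± 24.2 TPM in control and 761 ± 45.8 TPM in doxorubicin libraries (SD, n = 3), with a log2 fold change of 0.12 (SE 0.06, 95% interval -0.01 to 0.25, adjusted p = 0.0748 by limma). Without doxorubicin 3 the change was 0.17 (adjusted p = 0.0130). With median-of-ratios scaling it was 0.36 (adjusted p = 0.00833), and with quantile normalization the direction was reversed, to -0.066 (adjusted p = 0.292).

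TXNRD1 was at 239.5, 279 and 233 TPM in control 1 to 3 and at 118, 99.5 and 132 TPM in doxorubicin 1 to 3. All doxorubicin libraries lay well below all control libraries. The mean went from 250.3 ± 24.9 to 116 ± 16.1 TPM (SD, n = 3), 0.465 of the control level, and TXNRD1 fell by 1.10 on the log2 scale (SE 0.10, 95% interval -1.34 to -0.87, adjusted p = 2.18e-05 by limma). It was the 284th largest fall of the 5721 genes tested. The change was -1.16 with quantile normalization, -0.86 with median-of-ratios scaling and -1.19 to -0.99 when each library was left out in turn. The called falls were those of the genes with the longest spans of the 7, TXNRD1 and SOD2, and the part of span was not tested.

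An exact two-sided permutation test of each gene alone cannot go below p = 0.1 with 3 libraries against 3. It gave 0.1 for GPX1, GPX3, GPX4, SOD2 and TXNRD1, 0.2 for TXN and 0.3 for SOD3.

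**Figure D2:**
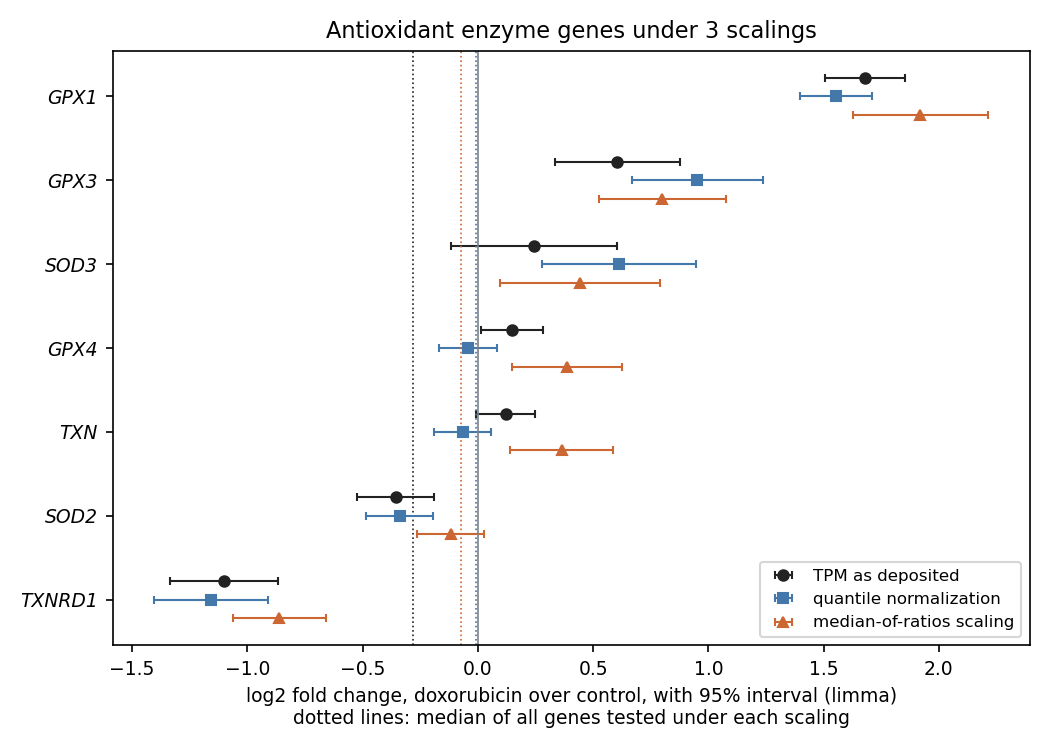
Log2 fold change of doxorubicin over control (horizontal axis) with its 95% interval from limma for the 7 genes, for TPM as deposited, quantile normalization and median-of-ratios scaling, with dotted lines at the median of all genes tested under each. GPX1, GPX3 and TXNRD1 kept their direction with intervals away from 0, GPX4 and TXN changed direction with quantile normalization, and the interval of SOD2 reached 0 with median-of-ratios scaling.

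The order of the levels, which are per length of transcript, changed at its head. In control libraries GPX4 and TXN were highest and overlapped each other, followed by GPX1, TXNRD1, SOD2, SOD3 and GPX3, with no overlap between neighbours from TXN downwards. In doxorubicin libraries GPX1 was highest, above GPX4 and TXN, which again overlapped, then TXNRD1 and SOD2, and at the foot SOD3 and GPX3 overlapped. All 7 genes summed to 2166 ± 15.0 TPM in control and 3117 ± 215 TPM in doxorubicin libraries (SD, n = 3), and GPX1 made up 20.0% ± 0.858 and 44.6% ± 1.93 of that sum.

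Ratios within a library do not depend on how the library was scaled as a whole. GPX1 made up 37.1, 38.6 and 37.9% of the summed TPM of GPX1, GPX3 and GPX4 in control 1 to 3 and 64.3, 65.1 and 61.9% in doxorubicin 1 to 3. GPX4 thus held the larger share in every control library and GPX1 in every doxorubicin library. GPX1 over SOD2, the peroxidase that removes hydrogen peroxide over the mitochondrial dismutase that makes it, was 5.99, 5.89 and 7.07 in control and 26.4, 30.5 and 21.7 in doxorubicin libraries. TXN over TXNRD1 was 2.80 ± 0.178 in control and 6.66 ± 1.32 in doxorubicin libraries (SD, n = 3), again without overlap. TXN over GPX4 was 0.992 ± 0.101 and 0.973 ± 0.0273, with overlapping groups.

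**Figure D3:**
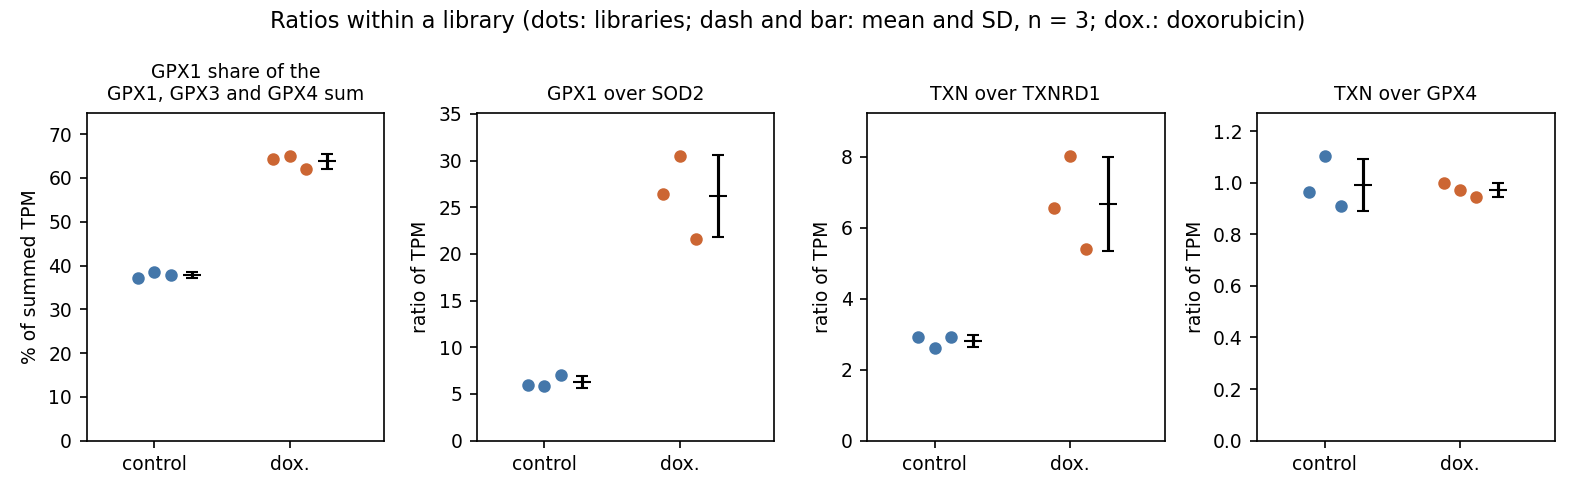
GPX1 as a percent of the summed TPM of GPX1, GPX3 and GPX4, and the TPM ratios GPX1 over SOD2, TXN over TXNRD1 and TXN over GPX4, on vertical axes that start at 0, with dots for the 3 control and 3 doxorubicin libraries and dash and bar for mean and SD. The share of GPX1 went from 37.9% to 63.8% on average and the first pair of ratios separated the groups, while TXN over GPX4 stayed near 1 in both.

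The genes whose 6 values ran closest to those of GPX1 were found among the 3179 that averaged 10 TPM or more, by the mean absolute difference of log2 values centred on each gene. They were GDF15, a stress-induced cytokine (0.0936), IFI30, a lysosomal thiol reductase (0.0997), and FDXR, the mitochondrial ferredoxin reductase (0.101), each with a log2 fold change of 1.50, 1.52 and 1.51. The genes closest to SOD2 were TMEM41B, an endoplasmic reticulum scramblase (0.0155), HUWE1, a ubiquitin ligase (0.0187), and DAB2IP, a RAS GTPase-activating protein (0.0247), with changes of -0.33, -0.39 and -0.39.

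The selenocysteine codon did not go with 1 direction. Of 11 genes in the table with an annotated selenocysteine, 9 were tested, 6 were called higher, 2 lower and 1 not, beside 28.2% higher and 48.7% lower of all genes tested, and GPX4, among the 6, was reversed by quantile normalization. GPX1, SELENOW (0.56 on the log2 scale), GPX3 and SELENOH (0.46) had the largest rises among them. TXNRD2, the mitochondrial thioredoxin reductase, was at 0.19 (adjusted p = 0.0471 by limma) and is named after its values were seen. TXNRD1 and DIO2, a thyroid hormone deiodinase (-0.52), were those called lower, the latter not under quantile normalization. DIO2 was near the lowest level tested, with means of 1.96 TPM in control and 1.08 TPM in doxorubicin libraries. Of 10 genes of selenoprotein synthesis 3 had a row. SEPHS1, a paralog of the selenophosphate synthetase, fell by 0.84 and SECISBP2L, a relative of the factor that binds the selenocysteine insertion element, fell by 0.53, the latter without a call under quantile normalization. EEFSEC, the elongation factor for selenocysteine, was at 0.19 and was not called (adjusted p = 0.145 by limma), but was called higher with quantile normalization (0.55) and with median-of-ratios scaling (0.40).

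TXNRD1 is a textbook target of NRF2, a transcription factor that binds antioxidant response elements. The 250 bases upstream of a RefSeq start of TXNRD1 are printed because it had the largest fall of the 7 genes and because the motif occurred in both of its promoter windows and in no other window of these genes. The window is chr12:104215529-104215778 of GRCh38.p14, plus strand, and holds no annotated exon. Capitals mark an antioxidant response element, searched as TGACNNNGC, and a GC box, searched as GGGCGG, on either strand.
TXNRD1: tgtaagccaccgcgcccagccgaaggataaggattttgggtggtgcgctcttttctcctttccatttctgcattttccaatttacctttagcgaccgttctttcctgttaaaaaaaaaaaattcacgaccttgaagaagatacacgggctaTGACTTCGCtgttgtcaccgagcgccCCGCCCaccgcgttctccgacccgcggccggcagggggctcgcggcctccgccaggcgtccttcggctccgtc

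The 7 genes have 13 such windows, of which 2 held the response element, against 10.9% of the 35116 windows of all genes. A GC box was found in 12 of the 13, against 42.6% of all windows, and the window without one was that of SOD3. The 13 windows are not separate observations. SOD2 has 4 of them and GPX4 has 3, and windows 1 and 2 of GPX4 overlap and share a GC box. The other windows overlap annotated exons and are not printed. A match describes letters in a window and says nothing of binding.

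The genes around these enzymes were described by 13 lists of 167 genes, of which 79 had a row and 75 were tested. Of the 75, 33 were called higher and 29 lower, with a median log2 fold change of 0.19 against -0.28 for all genes tested, of which 28.2% were called higher and 48.7% lower. With quantile normalization the counts were 36 and 20, beside 37.8% and 30.4% of all genes, and with median-of-ratios scaling 44 and 28, beside 44.7% and 39.6%. Each count below is to be read against these shares. Because only changed genes are listed, the counts describe the listed genes and not the pathways as a whole. Of the 75 genes tested 59 had a promoter window, and the antioxidant response element was found in 14 of their 85 windows. The share was 16.5%, against 10.9% of the windows of all genes. Genes with the element were called in both directions, such as GSTP1 (0.43) higher and GCLM (-1.01) lower. GSTP1 is named after its values were seen.

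The peroxiredoxins, which reduce hydrogen peroxide with electrons from thioredoxin or, for PRDX6, from glutathione, had 4 of 7 list genes in the table, and all 4 were called higher under each of the 3 scalings. The log2 fold changes were 0.57 for PRDX5, 0.41 for PRDX6, 0.40 for PRDX4 and 0.24 for PRDX2. PRDX6 went from 554 ± 12.6 to 739 ± 7.66 TPM (SD, n = 3). CCS, the copper chaperone of SOD1, rose by 0.44. Of 13 further genes of the thioredoxin and glutaredoxin system 7 had a row, with 5 called higher, 0 lower and 2 not called, and 6 higher with quantile normalization and 7 with median-of-ratios scaling. TXNIP, which binds and inhibits thioredoxin, was at 15.7, 11.2 and 15.2 TPM in control 1 to 3 and at 19.8, 18.2 and 20.4 TPM in doxorubicin 1 to 3, without overlap, and its log2 fold change was 0.46 (adjusted p = 0.00858 by limma). TXNDC17 (0.43) and TXNL4A (0.32), which carry a thioredoxin fold, also rose. TXNL4A is counted in this list by its fold and not as a redox enzyme.

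Of 15 genes that make and recycle glutathione, the cosubstrate of the GPX enzymes, 10 had a row, with 8 called lower, 1 higher and 1 not called, beside 48.7% lower and 28.2% higher of all genes tested. With quantile normalization 6 were lower, 2 higher and 2 not called, beside 30.4% and 37.8%. SLC7A11, the cystine importer, went from 20.8 ± 0.625 to 8.64 ± 1.26 TPM (SD, n = 3) and fell by 1.18 on the log2 scale. GCLM, the modifier subunit of glutamate-cysteine ligase, fell by 1.01. CBS, which makes cystathionine on the way to cysteine, fell by 1.31. GSR, the glutathione reductase, fell by 0.76, and GSS, the glutathione synthetase, rose by 0.42; both are named after their values were seen. Of 18 glutathione transferases 10 had a row, with 8 called higher, 1 lower and 1 not called, and 9 higher and 0 lower with quantile normalization. GSTZ1 (0.85), GSTT2B (0.84) and GSTT2 (0.75) rose most, and GSTT2 and GSTT2B are near-identical copies whose reads may be divided either way.

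NADPH drives both glutathione reductase and thioredoxin reductase. Of 16 genes of NADPH supply 9 had a row, with 7 called lower, 1 higher and 1 not called, beside 48.7% lower and 28.2% higher of all genes tested, and with quantile normalization 6 lower and 0 higher, beside 30.4% and 37.8%. ALDH1L2 (-1.48), MTHFD2 (-1.13), both of mitochondrial folate metabolism, and ME1 (-0.85), the cytosolic malic enzyme, fell most. Of 22 regulators and targets of NRF2 11 had a row, 5 called higher and 6 lower, and with quantile normalization 2 higher, 5 lower and 4 not called. The higher calls lost there were those of SQSTM1, FTH1 and FTL, named after their values were seen. The aldo-keto reductase genes AKR1C1 (-0.76) and AKR1C2 (-0.65) fell, AKR1C2 without a call under quantile normalization, and BLVRB (0.69), a biliverdin reductase, rose. NFE2L2, which encodes NRF2 and is named after its values were seen, fell by 0.62, from 68.5 ± 1.12 to 44.4 ± 5.54 TPM (SD, n = 3). Of the other regulators in the list, BACH1 fell by 0.60 and RBX1 rose by 0.42, also named after their values were seen. The activity of NRF2 was not tested.

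The list of antioxidant targets of p53 also held CDKN1A and GDF15, which are not antioxidant enzymes, and 8 of its 8 genes had a row. Of the 7 tested 5 were called higher, CDKN1A and GDF15 among them, and SESN3 lower, the latter not under quantile normalization. SESN3 is named after its values were seen. GDF15 (1.50), CDKN1A (1.06), the p21 gene that served as a check of the treatment, and SESN1 (0.75), a sestrin, rose most. CDKN1A was at 696 ± 12.7 TPM in control and 1456 ± 52.0 TPM in doxorubicin libraries (SD, n = 3). Of 10 FOXO and mitochondrial regulators 3 had a row. FOXO3 (-0.70) and NRF1 (-0.67), nuclear respiratory factor 1, were called lower, NRF1 not under quantile normalization, and the mitochondrial deacetylase SIRT3 was at 0.20 (adjusted p = 0.233 by limma), but was called higher with quantile normalization (0.44) and with median-of-ratios scaling (0.43). Of 12 NF-kB genes 4 had a row, with NFKBIE called higher (0.45), NFKB1 lower (-0.59), and NFKBIA (0.08) and RELB (0.20) not called. RELB was called higher with quantile normalization (0.47), and RELB (0.42) and NFKBIA (0.31) with median-of-ratios scaling, which gave 3 higher and 1 lower. The list of NADPH oxidases, which produce superoxide or hydrogen peroxide, also held genes of their subunits and partners. Of its 15 genes 3 had a row, all of them subunits or partners, and its NOX and DUOX genes and CYBB had none. CYBA (0.15) and POLDIP2 (0.12) were not called by limma (adjusted p = 0.0827 and 0.106), but both were called higher with median-of-ratios scaling (0.39 and 0.36). NOXA1, at a mean of 0.127 and 0.757 TPM, was below the level tested.

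**Figure D4:**
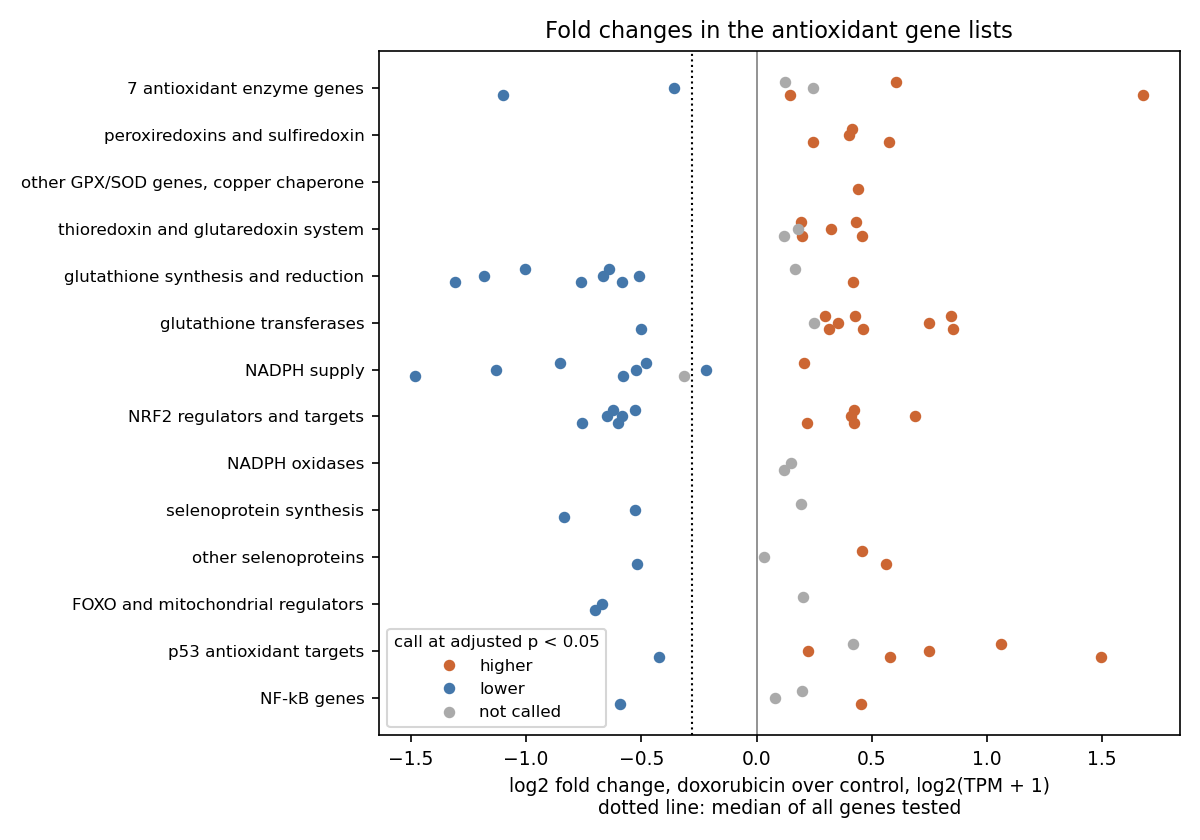
Log2 fold change of doxorubicin over control on the log2(TPM + 1) scale (horizontal axis) for each tested gene of the 7 antioxidant enzyme genes and of the 13 surrounding lists (rows), coloured by call at an adjusted p under 0.05, with a dotted line at the median of all genes tested, -0.28. Peroxiredoxins and most glutathione transferases lie right of 0, and most genes of glutathione synthesis and NADPH supply lie left of it, with TXNRD1 at -1.10 and GPX1 at 1.68 as the outermost of the 7 genes.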

How the data were processed

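RNA-seq values of 3 control and 3 doxorubicin libraries of WI-38 cells were analysed. Total RNA was extracted with TRIzol and sequenced from both ends over 150 bp. The submitters' processing notes list CASAVA, HISAT2, StringTie, RSEM, DESeq2 and edgeR, without roles or versions, and GRCm38, a mouse build, although the deposited gene identifiers are human. The authors deposited values per gene and library without naming the unit, and these were read as TPM. The authors also deposited a fold ratio and a p-value per gene, which were read only to check that all 6499 listed genes exceeded both thresholds. TPM keeps no depth, so no counting interval was given and the number of libraries limits the precision.

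The design foresaw counts, or limma for normalized values, and limma 3.58.1 (eBayes with trend and robust, R 4.3.3) was fitted on log2(TPM + 1) for 5721 genes averaging 1 TPM or more (778 were below), with Benjamini-Hochberg adjustment over all of them, after a test on simulated data. Positions came from GENCODE release 29 (GRCh38) by Ensembl identifier, and promoter windows from RefSeq on GRCh38.p14, where all 7 genes matched. Alternatives were a pseudocount of 0.1, no filter or a mean of at least 5 TPM, quantile normalization, median-of-ratios scaling, the replicate number as a block, limma without trend and robust, fold thresholds, and fits without each library. The genes, lists and the rule for naming genes (all of the 7 with a row, up to 3 called genes with the largest change per list, all listed genes of short lists, and the 3 genes nearest to GPX1 and to SOD2) were chosen with earlier results of these data known. Summaries were computed with pandas 2.3.3 and NumPy 2.4.6, exact tests with SciPy 1.17.1 and plots with matplotlib 3.10.9, under Python 3.11.15.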

Additional observations from a re-analysis of the deposited data

How the results depend on the processing

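GPX1 and TXNRD1 kept their direction and call in all 13 alternatives, and GPX3 in all 12 in which it was tested (its mean is below 5 TPM). The log2 fold change of GPX4 was reversed by quantile normalization (-0.044), as was that of TXN (-0.066). GPX4 kept its call in 5 of 13 alternatives. Median-of-ratios scaling called 5 of the 7 genes higher and 1 lower, and of all genes tested 2560 higher, while quantile normalization called 1737 of all genes lower, against 2788 on TPM as deposited. The share of higher calls among all calls was 36.6% on TPM, 55.5% with quantile normalization and 53.1% with median-of-ratios scaling; the cause was not tested. Without each library in turn, the fold changes ranged from 0.56 to 0.67 for GPX3, 0.09 to 0.18 for GPX4, -0.40 to -0.32 for SOD2, 0.10 to 0.41 for SOD3 and 0.09 to 0.17 for TXN. Same-numbered libraries did not deviate together (Pearson r of -0.06, -0.19 and -0.23), so the numbers were not read as pairs; with the replicate number as a block 4044 genes were called against 4399, and 4 of the 7 against 5, GPX4 being lost (adjusted p = 0.0981). With 3 libraries a group, unknown depth and a table of changed genes alone, smaller changes and the genes without a row cannot be judged.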
